A study of Mus musculus with 8 samples.

Results

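The collagen genes of the mouse pancreas were described in 8 male mice: 3 C57BL/6 WT mice on a low-fat diet (LFD), 3 C57BL/6 WT mice on a high-fat diet (HFD) in which fat gave 60% of the calories, and 2 leptin-deficient C57BL/6J; ob/ob mice on standard chow. Diets began at 4 weeks of age, and LFD and HFD were given for 10 weeks. According to the results of the study, though not the sample labels, all 8 mice carried in the pancreas a graft of tumour organoids (mT). These organoids came from a genetically engineered mouse model, in which Cre under the Pdx1 promoter acts in pancreatic epithelium. RNA was made from pieces of pancreas, so graft and host cells were measured together, and fewer cells of a type and less RNA per cell cannot be told apart. Values are rlog values, a log2 scale of expression corrected for library size, and a difference of 1 is 2-fold.

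Members were all genes whose symbol reads Col, a number, a and a number. The table held 37 such genes among its 15047. The fibrillar class had 10 of its 11 genes (Col1a1, Col1a2, Col3a1, Col5a1, Col5a2, Col5a3, Col11a1, Col11a2, Col24a1 and Col27a1), and Col2a1 was not in the table. The network class had all 9 (Col4a1 to Col4a6, Col8a1, Col8a2 and Col10a1). The FACIT class, collagens with interrupted helices that bind to the surface of fibrils, had 5 of 9 (Col9a3, Col12a1, Col14a1, Col16a1 and Col20a1), without Col9a1, Col9a2, Col19a1 and Col22a1. The remaining 13 of 15 (Col6a1 to Col6a6, Col7a1, Col13a1, Col15a1, Col18a1, Col23a1, Col26a1 and Col28a1) included filament, anchoring, transmembrane and basement membrane collagens, and Col17a1 and Col25a1 were not in the table.

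Collagens are the main structural proteins of the extracellular matrix. Their chains carry repeats of glycine and a pair of other residues, often proline and hydroxyproline, which wind into a triple helix. Types I, III and V build the fibrils of connective tissue, type IV builds the sheet of the basement membrane under epithelium and around vessels, and type VI forms beaded filaments between both. In the pancreas, collagen is made mainly by stellate cells and fibroblasts, and a dense collagen-rich stroma is a known feature of pancreatic ductal adenocarcinoma.

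Gene structure, which uses no expression value, set the fibrillar class apart by its number of exons of one length. In the principal transcripts of Gencode M21 (GRCm38), each fibrillar gene had 21 to 33 coding exons of exactly 54 bases, a length that encodes whole triplet repeats. These made up 41.2 to 55% of the coding exons of a fibrillar gene. The network genes had 0 to 3 such exons and the FACIT genes 4 to 14, with Col9a3 the highest at 14, or 43.8% of its coding exons, a share within the fibrillar range. The class of other collagens had 0 to 6, with Col7a1, whose coding sequence was split into 118 exons, at 6, and overlapped the counts of the network and FACIT classes. Among the 195215 coding exons of 21826 other genes, 0.442% had this length, and Gm11639 was the only other gene with 10 or more.

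**Figure D1:**
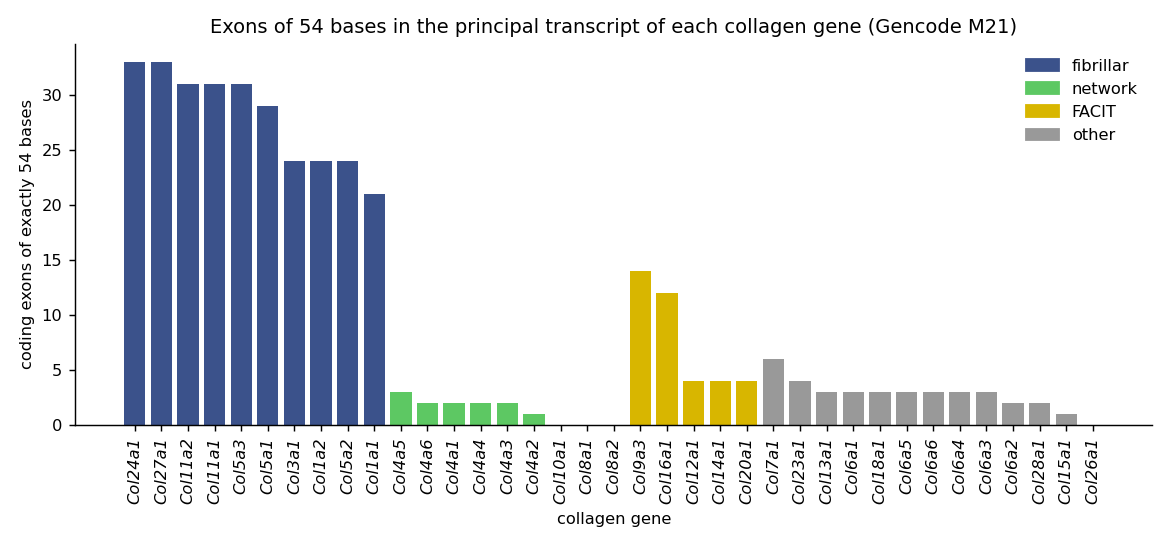
Number of coding exons of exactly 54 bases (vertical axis) in the principal transcript of each of the 37 collagen genes (bars), coloured by class. The 10 fibrillar genes have 21 to 33 and the 9 network genes 0 to 3.

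Promoter sequences are shown for 3 fibrillar genes whose values were higher in obese mice, Col3a1, Col5a1 and Col11a1. That of Col7a1, the only collagen below LFD at an unadjusted p under 0.05, is shown with them. Each is the 150 bases before the start site in RefSeq (GRCm38.p6), on the plus strand: chr1:45311388-45311537 for Col3a1, chr2:27886275-27886424 for Col5a1, chr3:114030390-114030539 for Col11a1 and chr9:108953436-108953585 for Col7a1. Capitals mark matches on either strand to the CCAAT box, whose letters are its name, to the TATA box, searched as TATAAA, or to the GC box, searched as GGGCGG.
Col3a1: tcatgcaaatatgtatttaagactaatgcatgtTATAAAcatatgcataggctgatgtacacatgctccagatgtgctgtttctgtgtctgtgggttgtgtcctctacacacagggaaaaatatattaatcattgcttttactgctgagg
Col5a1: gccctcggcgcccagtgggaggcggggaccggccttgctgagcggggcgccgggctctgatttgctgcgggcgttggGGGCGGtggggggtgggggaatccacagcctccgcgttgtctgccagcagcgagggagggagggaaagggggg
Col11a1: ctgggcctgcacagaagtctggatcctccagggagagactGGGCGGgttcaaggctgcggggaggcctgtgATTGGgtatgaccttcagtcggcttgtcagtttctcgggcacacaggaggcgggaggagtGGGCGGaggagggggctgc
Col7a1: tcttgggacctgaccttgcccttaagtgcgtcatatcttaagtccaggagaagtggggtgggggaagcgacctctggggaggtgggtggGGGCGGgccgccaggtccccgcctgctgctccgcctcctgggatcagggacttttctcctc
The Col3a1 window held TATAAA 117 bases before the start. The Col11a1 window held GGGCGG at 110 and 19 bases before the start and CCAAT in reverse (ATTGG) at 79. In Col5a1 and in Col7a1 the shown bases held a single GC box, at 73 and 61 bases before the start. These letters were then counted in the 250 bases before the start, where 30 of the 37 genes matched RefSeq with 32 promoters. GC boxes were in 62.5% of the 32 collagen promoters and in 32.74% of all 32851 RefSeq promoters, which include genes not measured here. CCAAT boxes were in 31.25% and 33.85%, TATA boxes in 12.5% and 12.37%, and AP-1 sites (TGACTCA) in 3.125% and 4.463%. The AP-1 match was in Col6a1. A match is only a match of letters.

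Per length, on the scale of rlog minus log2 of the transcript length in kb, the highest collagens over the 8 mice were Col3a1 at 10.80, Col1a2 at 9.46 and Col6a1 at 8.11. Col1a1 came next, also at 8.11. Col3a1 and Col1a2 led in each group, but the third place went to Col7a1 in LFD mice (7.39), Col1a1 in HFD mice (8.91) and Col6a1 in ob/ob mice (9.10). The lowest were Col4a3 at -0.28, Col6a4 at 0.38 and Col4a4 at 0.43. On the linear scale, Col3a1 made up 30.9 to 42.7% of the summed collagen level per kb in a mouse, Col1a2 11.8 to 15.7% and Col1a1 3.58 to 9.41%. Before division by length, 19 members had a mean rlog of at least 7 and 18 lay under it, where rlog values are drawn towards the gene's mean. The markers of the family were in every mouse, and only Col11a1 was low, with an rlog of 4.05 in LFD mouse 3.

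The mice differed strongly in another respect. The 28 acinar genes, which encode the digestive enzymes of the exocrine pancreas, all lay below their LFD mean in HFD and in ob/ob mice, while 52.4% and 53.1% of all genes lay above it. At an unadjusted p under 0.05, 3 of the 28 were lower in HFD mice and 2 in ob/ob mice, near the 8.35% and 7.18% of all genes. They made up 60.8, 61.7 and 63.1% of the summed linear values in the LFD mice, 60.0, 40.5 and 21.3% in the HFD mice, and 57.4 and 23.9% in the ob/ob mice. HFD mouse 3, ob/ob mouse 2 and to a lesser degree HFD mouse 2 therefore stood apart. HFD mouse 1 and ob/ob mouse 1 were closer to the LFD mice in this share. In the mean rlog of the 28 genes, however, ob/ob mouse 1 was below all LFD mice, at 17.15 against 17.50, 17.77 and 18.05, and HFD mouse 1 was at 17.84. Results are given with all mice, and below also without HFD mouse 3 and ob/ob mouse 2 and with the acinar level in the fit.

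The obese mice were compared with LFD mice to ask how diet-induced and genetic obesity stand with respect to collagen expression in grafted pancreas. In the HFD mice, 29 of 37 members were above the LFD mean, as were 52.4% of all genes, with a median log2 difference of 1.01 against 0.03 over all genes. In the ob/ob mice, 27 of 37 were above it, as were 53.1% of all genes, with a median of 1.15 against 0.04. Fibrillar genes had the largest medians, at 1.35 and 1.78. Type VII collagen went the other way, with Col7a1 below LFD by more than 1 in both. No member and no other gene passed an adjusted p of 0.05 in limma in either comparison, where the lowest adjusted p of a collagen was 0.175 in HFD mice and 0.135 in ob/ob mice.

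At an unadjusted p under 0.05, 17 of 37 members were higher and 1 was lower in HFD mice, where 11.5% of all genes were higher and 8.35% lower. The ob/ob mice had 20 higher and 1 lower, where 11.6% of all genes were higher and 7.18% lower. The HFD values did not overlap the LFD values in 13 members above and 1 below, against 12.9% and 12.3% of all genes. The ob/ob values did not overlap them in 22 above and 2 below, against 24.1% and 21.8%. Both comparisons use the same LFD mice, so their differences are not independent.

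**Figure D2:**
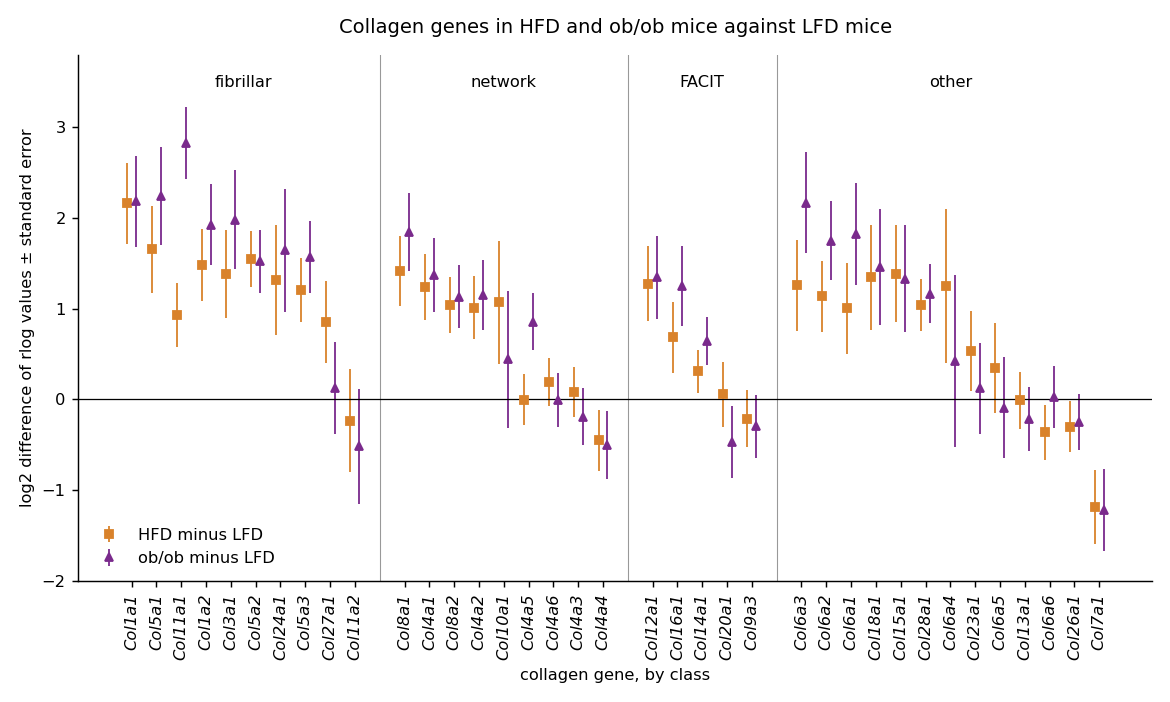
Log2 difference of rlog values from the LFD mean for each of the 37 collagen genes (horizontal axis, by class) in HFD mice (squares, n = 3) and ob/ob mice (triangles, n = 2). Bars are the standard errors of the limma fit. Differences run from -1.22 for Col7a1 to 2.83 for Col11a1, both in ob/ob mice.

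The counts were also split by the mean rlog over all 8 mice, to which the obese mice contribute. Col5a3, at 6.31 in LFD mice on average, reached 7 only through them. Of the 19 members with a mean rlog of at least 7, 14 were higher in HFD mice and 16 in ob/ob mice at an unadjusted p under 0.05, where 9.68% and 9.92% of all genes of that level were. Of the 18 under 7, 3 and 4 were higher, nearer to the 13.5% and 13.6% of all genes under 7. The medians of the more abundant members were 1.26 and 1.52, and over all genes of that level they were -0.05 and -0.06.

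Among fibrillar collagens, 7 of 10 were higher in HFD mice and 8 of 10 in ob/ob mice at an unadjusted p under 0.05, against 11.5% and 11.6% of all genes. With the acinar level in the fit these were 6 and 7, where 5.91% and 6.37% of all genes were, and Col11a1 in HFD mice (0.58) and Col24a1 in ob/ob mice (0.62) were no longer at that p. Differences that kept that p were smaller too, at 1.43 and 1.40 for Col1a1, 0.76 and 1.15 for Col1a2, 0.53 and 1.06 for Col3a1, and 0.76 and 1.28 for Col5a1. Col1a1 (chromosome 11, 94936224 to 94953042), a chain of type I collagen, the main collagen of scar and stroma, was at 9.79, 9.28 and 8.89 in the LFD mice, 10.63, 11.28 and 12.53 in the HFD mice, and 11.29 and 11.72 in the ob/ob mice. All 5 obese mice lay above all LFD mice. The difference was 2.16 ± 0.45 (SE) in HFD mice (n = 3) and 2.19 ± 0.50 in ob/ob mice (n = 2), with limma adjusted p-values of 0.175 and 0.168.

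Col1a2 (chromosome 6), the partner chain of Col1a1, was at 11.06, 10.82 and 10.65 in LFD, 11.67, 12.25 and 13.05 in HFD, and 12.17 and 13.36 in ob/ob mice. Its differences were 1.48 ± 0.40 and 1.92 ± 0.45. Col3a1 (chromosome 1, 45311538 to 45349706), whose chain alone forms type III collagen, a fibril partner of type I, was at 12.41, 12.46 and 11.92 in LFD, 12.75, 13.75 and 14.44 in HFD, and 13.59 and 14.90 in ob/ob mice. Obese and LFD mice did not overlap, although HFD mouse 1 was within 0.3 of the highest LFD mouse, and the differences were 1.39 ± 0.48 and 1.98 ± 0.54. Its neighbour on chromosome 1, Col5a2 (45374321 to 45503282), lay 1.54 ± 0.31 and 1.52 ± 0.35 above LFD.

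Type V collagen is built into type I fibrils and limits their width. Its Col5a1 chain was at 8.11, 7.87 and 7.76 in LFD, 8.74, 9.30 and 10.66 in HFD, and 9.55 and 10.76 in ob/ob mice. This gave differences of 1.66 ± 0.48 and 2.24 ± 0.54 (limma adjusted p = 0.181 and 0.174). Col5a3, a further type V chain, differed by 1.20 ± 0.35 and 1.57 ± 0.40, and all 5 obese mice exceeded all LFD mice for each of the 3 type V genes.

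Col11a1 (chromosome 3, 114030540 to 114220718), a type XI chain best known from cartilage and also made by fibroblasts of tumour stroma, had a pattern of its own. It was at 5.09, 4.61 and 4.05 in LFD, 5.38, 5.50 and 5.66 in HFD, and 6.95 and 7.88 in ob/ob mice. The 3 groups did not overlap. The difference from LFD was 0.93 ± 0.35 in HFD mice and 2.83 ± 0.39 in ob/ob mice (limma adjusted p = 0.22 and 0.135). Between ob/ob and HFD mice it was 1.90 ± 0.39, with an adjusted p of 0.883. Col11a2, another type XI chain, was low throughout, at 2.31 to 4.49, with differences of -0.24 ± 0.57 and -0.52 ± 0.64.

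Col24a1 and Col27a1 complete the class. Col24a1 was at 2.35, 2.39 and 2.77 in LFD, 2.48, 3.71 and 5.26 in HFD, and 3.92 and 4.37 in ob/ob mice, so HFD mouse 1 lay among the LFD mice. Its differences were 1.32 ± 0.61 and 1.64 ± 0.68. Col27a1 was at 6.31 in HFD mouse 1, below all LFD mice, and at 7.87 and 8.19 in the others, giving a difference of 0.85 ± 0.45 in HFD and 0.13 ± 0.50 in ob/ob mice.

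**Figure D3:**
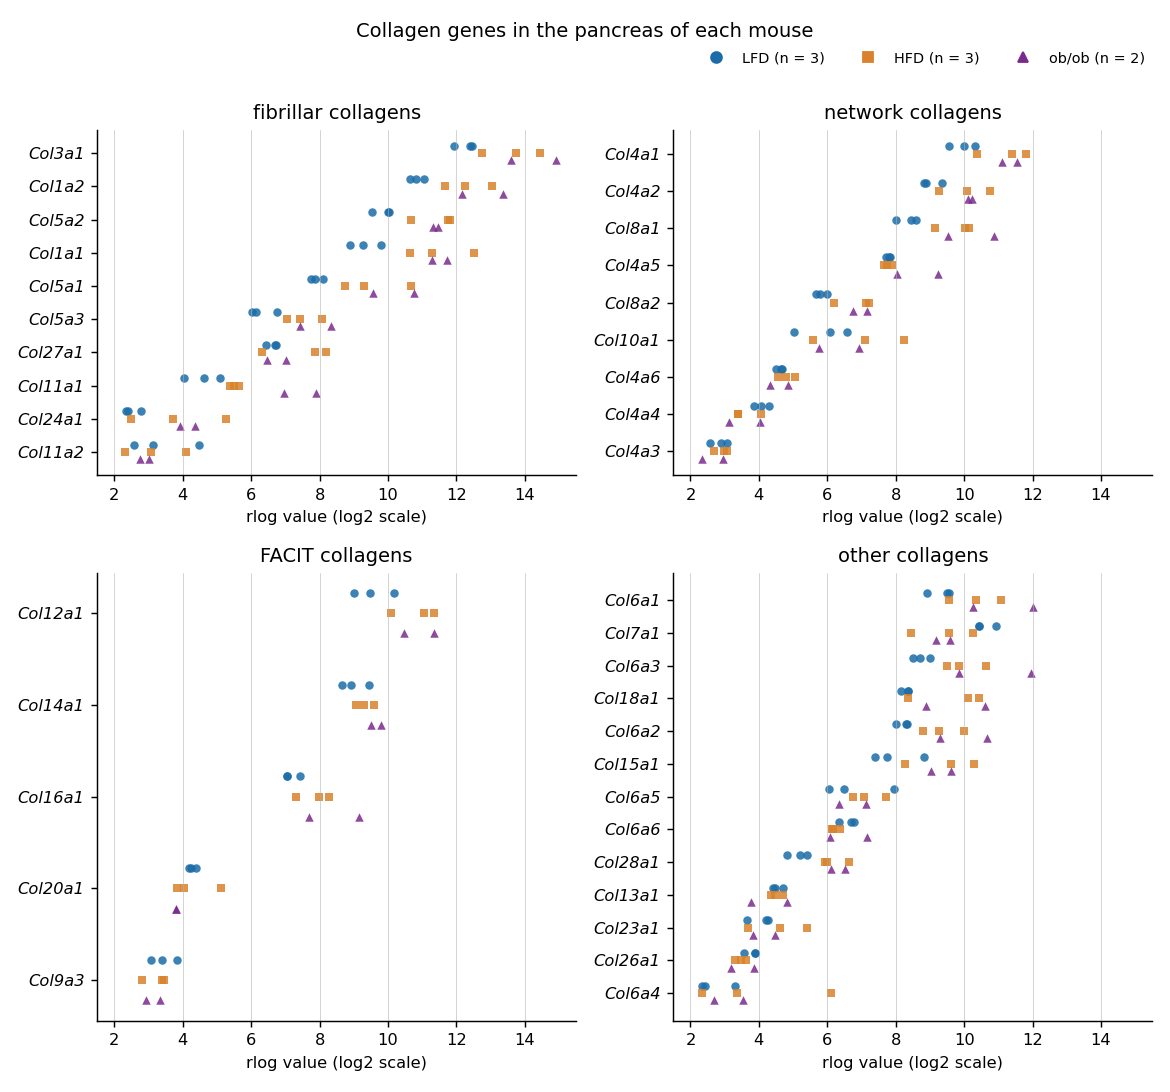
The rlog value (horizontal axis, log2 scale) of each of the 37 collagen genes in each mouse, by class. Circles are LFD, squares HFD and triangles ob/ob mice, set apart vertically within a gene. For Col1a1 all 5 obese mice lie above all LFD mice, and for Col7a1 they all lie below.

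Network collagens split by chain. Col4a1, which forms the ubiquitous basement membrane collagen together with Col4a2, was at 10.33, 9.98 and 9.56 in LFD, 10.38, 11.38 and 11.81 in HFD, and 11.11 and 11.55 in ob/ob mice. HFD mouse 1 was only just above the highest LFD mouse. The differences were 1.24 ± 0.36 and 1.37 ± 0.41 (limma adjusted p = 0.182 and 0.2). Col4a2 was 1.01 ± 0.34 and 1.15 ± 0.38 above LFD, and with the acinar level in the fit 0.49 and 0.59, at an unadjusted p of 0.0757 and 0.0578. These genes lie head to head on chromosome 8, with annotated starts at 11312826 and 11312805 on opposite strands, so that their ends overlap.

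The other type IV chains, which replace these in specialised basement membranes such as that of the kidney glomerulus, lie in head-to-head pairs on chromosomes 1 and X and lay nearer to LFD. Col4a3 differed from LFD by 0.08 ± 0.28 and -0.19 ± 0.31, and Col4a4 by -0.45 ± 0.34 and -0.50 ± 0.38. Col4a6 differed by 0.19 ± 0.27 in HFD mice, and by less than 0.01 in ob/ob mice. Col4a5 was at 7.82, 7.81 and 7.70 in LFD, 7.67, 7.90 and 7.75 in HFD, and 8.04 and 9.22 in ob/ob mice. Its ob/ob values lay above all others, mainly through ob/ob mouse 2, and the difference from HFD was 0.86 ± 0.31 (limma adjusted p = 0.9996). Its difference from LFD in ob/ob mice had an unadjusted p under 0.05 in the fit of all mice, but not with the acinar level in the fit (0.52, unadjusted p = 0.109).

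Type VIII collagen forms hexagonal lattices, as around vessels. Its Col8a1 chain was at 8.60, 8.44 and 8.01 in LFD, 9.14, 10.04 and 10.13 in HFD, and 9.52 and 10.86 in ob/ob mice. Every obese mouse exceeded every LFD mouse, with differences of 1.42 ± 0.38 and 1.84 ± 0.43. Col8a2 followed at 1.04 ± 0.31 and 1.13 ± 0.35. Col10a1, the collagen of growth plate cartilage, overlapped between all groups, at 5.03 to 6.58 in LFD and 5.58 to 8.23 in HFD mice. It lies within Nt5dc1 on the opposite strand, and Nt5dc1 was 0.43 below LFD in HFD and 0.22 below in ob/ob mice.

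In the FACIT class, 1 of 5 genes was higher in HFD mice and 3 of 5 in ob/ob mice at an unadjusted p under 0.05, where 11.5% and 11.6% of all genes were, with medians of 0.31 and 0.64. The medians were 0.06 and 0.38 with the acinar level in the fit, where Col12a1 alone was higher in HFD mice and none of the 5 was higher in ob/ob mice at that p. The unadjusted p in ob/ob mice was then 0.0587 for Col12a1, 0.081 for Col16a1 and 0.164 for Col14a1. Col12a1, which coats type I fibrils, was at 10.18, 9.46 and 9.02 in LFD, 10.09, 11.06 and 11.34 in HFD, and 10.45 and 11.34 in ob/ob mice. HFD mouse 1 lay among the LFD mice. The differences were 1.28 ± 0.41 and 1.34 ± 0.46. Col16a1 was at 7.04, 7.06 and 7.42 in LFD, 7.32, 7.97 and 8.29 in HFD, and 7.68 and 9.16 in ob/ob mice. Its differences were 0.68 ± 0.39 and 1.25 ± 0.44, and the second was 0.51 without ob/ob mouse 2. Col14a1, another fibril coat, was 0.31 ± 0.24 and 0.64 ± 0.27 above LFD. Col9a3 was below LFD by 0.22 ± 0.31 and 0.30 ± 0.35. Col20a1 was 0.05 ± 0.36 above LFD in HFD mice and 0.47 ± 0.40 below in ob/ob mice.

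Type VI collagen is assembled from Col6a1, Col6a2 and a further chain, commonly Col6a3. Col6a3 was at 8.70, 8.51 and 9.01 in LFD, 9.50, 9.85 and 10.64 in HFD, and 9.86 and 11.96 in ob/ob mice, with no overlap between obese and LFD mice. The differences were 1.26 ± 0.50 and 2.17 ± 0.56 (limma adjusted p = 0.228 and 0.186), and ob/ob was 0.91 ± 0.56 above HFD. The HFD difference of Col6a3 was 0.43 with the acinar level in the fit (unadjusted p = 0.198). Col6a1 was 1.01 ± 0.50 and 1.82 ± 0.56 above LFD, and Col6a2 1.14 ± 0.39 and 1.75 ± 0.44. These 3 genes had their highest value in ob/ob mouse 2. Without that mouse the ob/ob differences from LFD were 1.12 for Col6a3, 1.06 for Col6a2 and 0.94 for Col6a1, the last at an unadjusted p of 0.119, and ob/ob mouse 1, at 9.86, lay below the HFD mean of Col6a3, 10.00.

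The alternative type VI chains lie in a row on chromosome 9, and none had an unadjusted p under 0.05. Col6a5 differed by 0.34 ± 0.50 and -0.09 ± 0.56, and Col6a6 by -0.36 ± 0.30 and 0.03 ± 0.34. Col6a4 was between 2.32 and 3.54 in 7 mice and at 6.12 in HFD mouse 3, so its HFD difference of 1.25 ± 0.85 rests on that mouse.

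Col15a1 and Col18a1 encode collagens with sugar chains that sit at basement membranes, and the end of the Col18a1 chain is released as endostatin. Col15a1 was at 8.84, 7.74 and 7.40 in LFD, 8.26, 9.61 and 10.27 in HFD, and 9.03 and 9.62 in ob/ob mice. Col18a1 was at 8.37, 8.14 and 8.36 in LFD, 8.35, 10.11 and 10.44 in HFD, and 8.89 and 10.61 in ob/ob mice. In both genes HFD mouse 1 lay among the LFD mice, and the differences were 1.39 ± 0.53 and 1.33 ± 0.59 for Col15a1, and 1.35 ± 0.58 and 1.46 ± 0.64 for Col18a1. With the acinar level in the fit, the HFD differences were 0.56 (unadjusted p = 0.168) for Col15a1 and 0.29 (0.269) for Col18a1. Col28a1, a less abundant filament collagen found around nerve, was 1.04 ± 0.29 and 1.17 ± 0.33 above LFD, with every obese mouse above every LFD mouse.

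Col7a1 (chromosome 9, 108953586 to 108984875) was the exception. It forms the anchoring fibrils that tie an epithelial basement membrane to the tissue below. It was at 10.93, 10.43 and 10.44 in LFD, 10.25, 9.55 and 8.44 in HFD, and 9.57 and 9.18 in ob/ob mice. All obese mice lay below all LFD mice. The differences were -1.19 ± 0.41 and -1.22 ± 0.45 (limma adjusted p = 0.202 and 0.232), and it was the only member below LFD at an unadjusted p under 0.05. With the acinar level in the fit, the differences were -0.56 and -0.54, no longer at that p. Among all members, Col7a1 was on average 6.22% of the summed collagen level per kb in LFD mice, 1.65% in HFD mice and 0.929% in ob/ob mice. Single mice were at 3.41, 1.18 and 0.357% in HFD, and at 1.37 and 0.490% in ob/ob. The other members below LFD in both were Col11a2, Col4a4, Col9a3, Col26a1 and Col13a1, the last by 0.01 ± 0.32 and 0.22 ± 0.36, and Col26a1 by 0.30 ± 0.28 and 0.25 ± 0.31. Each had a mean rlog under 5.

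The remaining member, Col23a1, a transmembrane collagen, was at 3.65 to 4.25 in LFD mice, with differences of 0.53 ± 0.44 and 0.12 ± 0.50.

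Between ob/ob and HFD mice the median difference of the family was 0.09, against 0.01 over all genes, and it ran from -0.15 to 0.35 when single mice were left out. Col11a1 and Col4a5 were higher in ob/ob mice at an unadjusted p under 0.05, where 2.28% of all genes were, and none was lower, where 1.63% were. Col11a1 and Col4a5 were also the members whose ob/ob values all lay above the HFD values, where 7.92% of all genes did, and Col20a1 was the member whose ob/ob values all lay below, where 5.42% did. With the acinar level in the fit, 8 members were higher in ob/ob mice (Col1a2, Col3a1, Col5a1, Col11a1, Col4a5, Col6a1, Col6a2 and Col6a3) and 1, Col27a1, was lower at an unadjusted p under 0.05, where 4.3% and 3.62% of all genes were. The fibrillar median was 0.35 without the acinar level in the fit and 0.29 with it. The lowest adjusted p of a collagen, that of Col11a1, was 0.883 without it and 0.182 with it. Cell markers also differed in this comparison. At an unadjusted p under 0.05 the ob/ob mice had 6 of 10 markers of duct and tumour epithelium lower and 7 of 10 islet markers higher, against the 1.63% and 2.28% of all genes given above. The part of these in the collagen values was not tested.

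With both models pooled against LFD, 20 members were higher and 1 was lower at an unadjusted p under 0.05, where 14.5% and 10.9% of all genes were. The lowest adjusted p of a collagen was 0.081, for Col11a1, followed by 0.0832 for Col5a2 and 0.0853 for Col1a1. All 5 obese mice exceeded all LFD mice in 13 members and below in Col7a1, against 9.4% and 9.05% of all genes. In 7 more members 4 of the 5 were above.

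The obese mice were not alike. HFD mouse 1 was the lowest obese mouse in 25 of 37 members and in all 10 fibrillar genes. The highest value of all 8 mice was that of ob/ob mouse 2 in 14 members and of HFD mouse 3 in 11. The median SD of a member was 0.285 among LFD, 0.636 among HFD and 0.554 among ob/ob mice, against 0.226, 0.348 and 0.283 over all genes. Without HFD mouse 1, 18 members passed an adjusted p of 0.05 in HFD against LFD mice, 17 of them higher and Col7a1 lower, and so did 18.7% of all genes.

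The summed collagen level per kb, relative to the LFD mean, was 1.15, 1.04 and 0.81 in the LFD mice, 1.41, 2.50 and 3.84 in the HFD mice, and 2.19 and 4.67 in the ob/ob mice. No obese mouse was as low as an LFD mouse. Fibrillar genes made up 55.4, 58.4 and 56.0% of it in LFD, 63.3, 65.1 and 70.1% in HFD, and 67.7 and 67.9% in ob/ob mice, again without overlap. The share of other collagens, the class that holds Col7a1, was 21.1 to 23.7% in LFD mice and 15.1 to 19.1% in obese mice. The FACIT share was 6.94 to 7.63% in LFD mice and 3.89 to 5.95% in obese mice, and the network share overlapped.

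**Figure D4:**
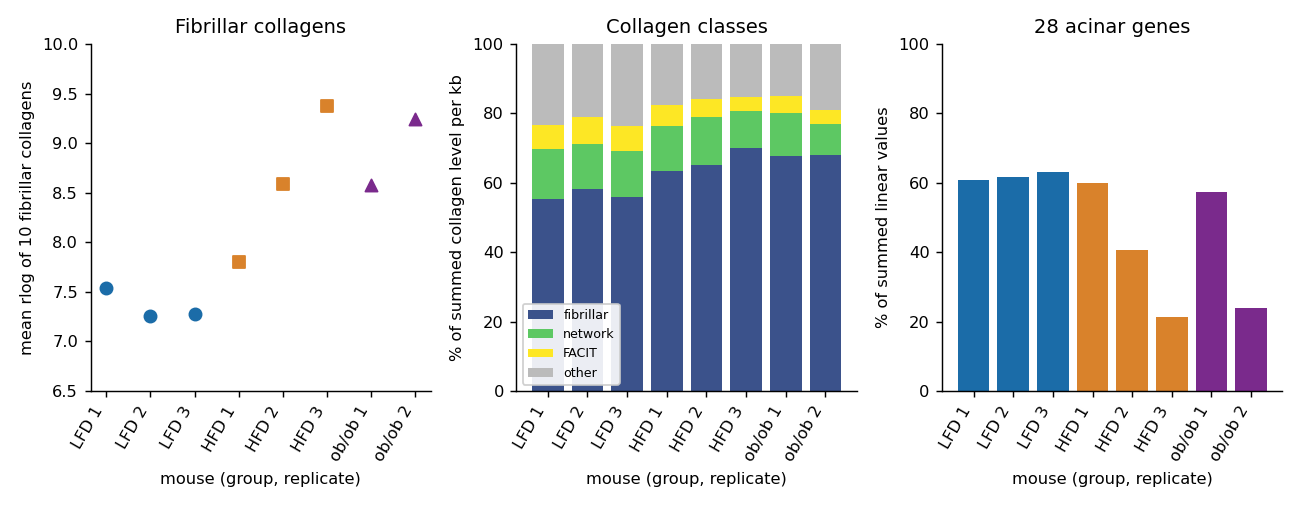
Mean rlog of the 10 fibrillar collagens (left, axis not from 0), percent of the summed collagen level per kb by class (middle), and percent of the summed linear values made up by 28 acinar genes (right) in each mouse. ob/ob mouse 1 has an acinar share of 57.4% (60.8 to 63.1% in LFD mice) and a fibrillar mean of 8.58 (7.26 to 7.54 in LFD mice).

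The mean rlog of the 10 fibrillar genes was 7.54, 7.26 and 7.28 in LFD, 7.80, 8.59 and 9.38 in HFD, and 8.58 and 9.24 in ob/ob mice. HFD mouse 1 and ob/ob mouse 1, whose acinar shares were nearest to those of the LFD mice, were above all LFD mice, HFD mouse 1 only narrowly. The mean rlog of the acinar genes in ob/ob mouse 1 was 17.15, below the 17.50 to 18.05 of the LFD mice. The part of this in the collagen values of that mouse was not tested. When HFD mouse 3 and ob/ob mouse 2 were left out, a setting chosen after the data were seen, 15 members were higher in HFD mice and 16 in ob/ob mice at an unadjusted p under 0.05, where 7.98% and 4.9% of all genes were. Only 1 ob/ob mouse is left there, assumed to vary like the others. The medians were then 0.62 and 0.60. With the acinar level (the mean rlog of the 28 genes) in the fit, 12 and 14 members were higher, where 5.91% and 6.37% of all genes were, and the medians were 0.36 and 0.56. Of the 17 and 20 members higher without it, 14 and 16 had a difference that was smaller by over 1.5 times.

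Pairs of collagen genes were set side by side within each mouse, where depth cancels; gene length cancels when a pair is compared between mice. Of 13 pairs measured, most join chains of the same collagen type. Col3a1 with Col1a1, Col12a1 with Col14a1, Col15a1 with Col18a1 and Col4a1 with Col1a1 join chains of different types, which do not share a triple helix. Col4a1 minus Col4a2 ranged over 0.58 across the 8 mice and Col6a1 minus Col6a2 over 0.63, less than the range of any other of these pairs. Col1a1 minus Col1a2 was -1.52 ± 0.25 (SD) in LFD (n = 3), -0.84 ± 0.28 among HFD (n = 3) and -1.26 ± 0.53 among ob/ob mice (n = 2). Col11a1 minus Col11a2 had the widest range, 5.57. Basement membrane collagen was set against type I collagen with Col4a1 minus Col1a1, which was 0.54, 0.70 and 0.68 in LFD, -0.25, 0.11 and -0.71 in HFD, and -0.18 and -0.17 in ob/ob mice. Among the 13 pairs it was the only one in which obese and LFD mice did not overlap. It rests on the choice of Col1a1. With the other type I chain, Col4a1 minus Col1a2, a pair added after the values were seen, was -0.73, -0.83 and -1.09 in LFD, -1.29, -0.87 and -1.23 in HFD, and -1.06 and -1.81 in ob/ob mice, which overlap.

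**Figure D5:**
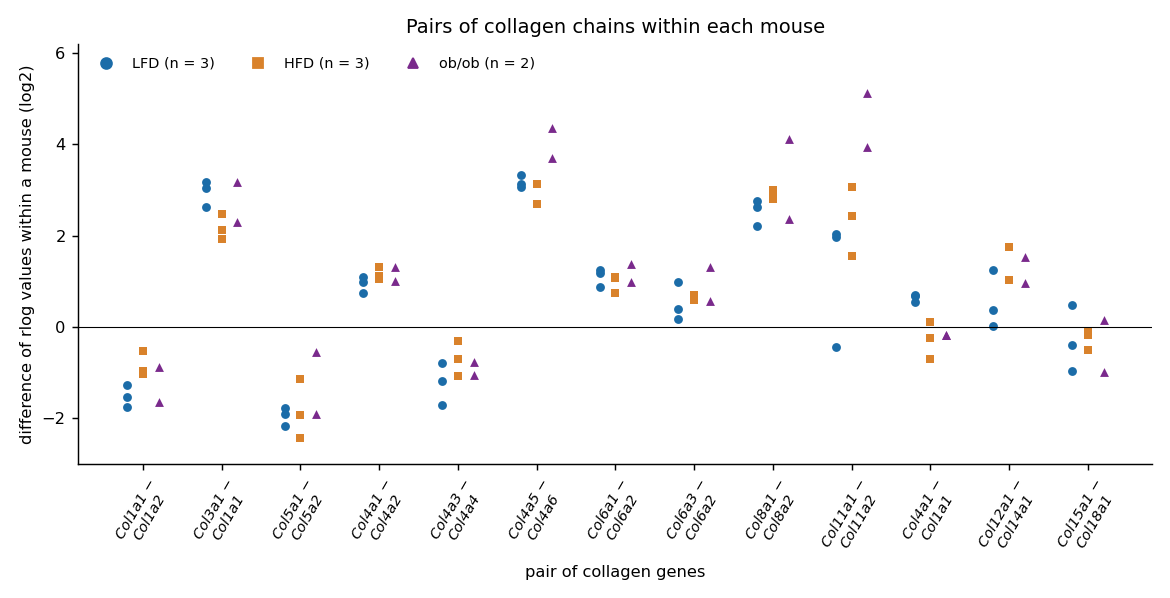
Difference of rlog values between the genes of each of 13 pairs (horizontal axis) within each mouse. Circles are LFD, squares HFD and triangles ob/ob mice. Col4a1 minus Col1a1 is 0.54 to 0.70 in LFD mice and -0.71 to 0.11 in obese mice.

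Collagen chains are hydroxylated and folded in the endoplasmic reticulum before they leave the cell. Of 20 genes for these steps, 5 were higher and 3 lower in HFD mice at an unadjusted p under 0.05, and 7 were higher with 2 lower in ob/ob mice. Over all genes 11.5% were higher and 8.35% lower in HFD mice, and 11.6% and 7.18% in ob/ob mice, which on 20 genes leaves the counts of lower genes near the background. Serpinh1, the collagen chaperone HSP47, was at 9.42, 9.56 and 9.31 in LFD, 9.98, 10.97 and 10.67 in HFD, and 10.67 and 11.46 in ob/ob mice. No LFD mouse reached the level of an obese mouse, and the differences were 1.11 ± 0.29 and 1.64 ± 0.32. Plod2, a lysyl hydroxylase for the cross-links of stiff matrix, was 1.26 ± 0.46 and 1.77 ± 0.52 above LFD. P4ha3, a prolyl hydroxylase subunit, was 1.17 ± 0.28 and 0.96 ± 0.32 above, and Fkbp10, a folding isomerase, 0.83 ± 0.55 and 1.85 ± 0.62. Mia3, needed for export of collagen from the endoplasmic reticulum, was lower at that p in both models, by 1.03 ± 0.30 and 0.99 ± 0.33. P4hb, which is also protein disulfide isomerase, was 1.02 ± 0.42 and 1.06 ± 0.47 below LFD, at that p only in HFD mice (0.0509 in ob/ob mice). P3h4 was the other lower gene in HFD mice, by 0.66 ± 0.26, and Colgalt2, a collagen galactosyltransferase, the other in ob/ob mice, by 0.67 ± 0.26. Ppib, a general folding isomerase, was 1.14 ± 0.52 and 1.14 ± 0.58 below LFD and missed that p in both (0.0564 and 0.0824). Values of Ppib, P4hb and Mia3 in HFD mouse 1 and ob/ob mouse 1 were nearer to LFD than in the other obese mice, as was the acinar share, whose part in this was not tested.

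Outside the cell, propeptides are cut off and fibrils are cross-linked. Of 12 measured genes for this (Tll2 was not in the table), 7 were higher in HFD mice and 8 in ob/ob mice at an unadjusted p under 0.05 and none was lower at that p, against the same shares of all genes. Lox, the lysyl oxidase, was at 7.08, 6.99 and 6.24 in LFD, 7.999, 8.74 and 8.97 in HFD, and 8.94 and 9.55 in ob/ob mice, without overlap. Its differences were 1.80 ± 0.33 and 2.48 ± 0.37 (limma adjusted p = 0.169 and 0.137). Loxl4 was 1.86 ± 0.57 and 1.41 ± 0.64 above LFD and Loxl2 1.67 ± 0.51 and 2.16 ± 0.57. Bmp1, the protease that removes the C-terminal propeptide, was 1.41 ± 0.40 and 1.60 ± 0.44 above. The genes that cut the N-terminal propeptide differed. Adamts2 was 1.28 ± 0.36 and 1.61 ± 0.40 above LFD. Adamts14 was 0.49 ± 0.61 and 2.04 ± 0.69 above, the second mainly through ob/ob mouse 2, at 6.23, with ob/ob mouse 1 at 3.48. Adamts3, low at a mean of 3.10 in LFD mice, was 0.04 ± 0.37 and 0.50 ± 0.41 below.

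Of 10 measured collagen receptors (Gp6 was not in the table), 4 were higher in HFD mice at an unadjusted p under 0.05, while ob/ob mice had 5 higher and 1 lower. The share of all genes that were higher was 11.5% in HFD mice and 11.6% in ob/ob mice. In ob/ob mice 7.18% of all genes were lower, so 1 of 10 is near the background. Itga2, the collagen-binding integrin subunit of epithelium and platelets, was 2.42 ± 0.57 and 0.98 ± 0.63 above LFD. Lair1, an inhibitory collagen receptor of leukocytes, was 1.48 ± 0.47 and 2.02 ± 0.53 above. Mrc1, a macrophage receptor that takes up collagen, was 0.84 ± 0.29 and 1.74 ± 0.32 above. Itga10 was 0.42 ± 0.55 below LFD in HFD mice, and Itga1 0.67 ± 0.26 below in ob/ob mice. For Itga1 this came mainly from ob/ob mouse 2, at 8.43, with ob/ob mouse 1 at 9.19 and the LFD mice at 9.40 to 9.53.

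Of 9 measured collagen-degrading proteases (Mmp1a was not in the table), 6 were higher in HFD mice at that p, where 11.5% of all genes were. The ob/ob mice had 6 higher and 1 lower, where 11.6% and 7.18% of all genes were. The collagenase Mmp13 was at 4.76, 5.06 and 4.51 in LFD, 5.78, 7.96 and 6.68 in HFD, and 5.79 and 6.00 in ob/ob mice. Its differences were 2.03 ± 0.49 and 1.12 ± 0.55. The gelatinase Mmp9 was 1.86 ± 0.44 and 1.39 ± 0.49 above LFD and the membrane-bound Mmp14 1.40 ± 0.43 and 1.63 ± 0.48. Mmp15 was 0.45 ± 0.37 and 1.08 ± 0.41 below.

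Of 12 measured proteoglycans and fibril partners (Kera and Epyc were not in the table), 6 were higher in each model and none was lower at an unadjusted p under 0.05, where 11.5% and 11.6% of all genes were higher. In all, 8 of the 12 lay above the LFD mean in HFD mice and 10 in ob/ob mice. Fibronectin (Fn1) was 1.49 ± 0.55 and 1.85 ± 0.61 above LFD, and Sparc, a collagen-binding matricellular protein, 1.32 ± 0.40 and 1.98 ± 0.45. The ob/ob difference of Fn1 came mainly from mouse 2, at 14.13, with mouse 1 at 11.95 and the LFD mice at 10.70 to 11.73. The small proteoglycan Dcn, on the other hand, was at 12.09, 11.97 and 12.17 in LFD, 12.12, 11.86 and 11.39 in HFD, and 11.82 and 12.88 in ob/ob mice, which overlap. Tnxb was 0.17 ± 0.41 and 0.98 ± 0.45 below. The second rests on ob/ob mouse 2, at 6.80, as ob/ob mouse 1, at 8.41, lay within the LFD range of 8.30 to 8.94.

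Markers of cells that make collagen were read beside these values. All 12 fibroblast and stellate cell markers were measured, with Dcn the most abundant and none at 0. Their log2 summed level was 13.07, 13.03 and 12.99 in LFD, 13.29, 13.62 and 13.72 in HFD, and 13.46 and 14.45 in ob/ob mice, so every obese mouse exceeded every LFD mouse in this sum. The markers did not move alike. Postn was 1.78 and 2.06 above LFD and Vim 1.07 and 1.73, while Dcn was 0.29 below in HFD mice and 0.27 above in ob/ob mice. In each model 10 markers lay above the LFD mean. Dcn and Dpt lay below it in HFD mice, and Pi16 and Des in ob/ob mice. Of the 12, 3 were higher in HFD mice and 6 in ob/ob mice at an unadjusted p under 0.05, where 11.5% and 11.6% of all genes were. The 8 leukocyte markers, led by Lyz2, summed to 13.53, 13.13 and 12.996 in LFD, 13.81, 14.75 and 13.89 in HFD, and 14.31 and 15.22 in ob/ob mice, and 4 and 6 of them were higher at that p. The part of either in the collagen values was not tested.

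The 28 acinar markers, led by Amy2a5, summed on the log2 scale to 24.76, 24.95 and 25.35 in LFD, 25.08, 22.80 and 20.97 in HFD, and 24.30 and 21.28 in ob/ob mice. In the other lists members are counted at an unadjusted p under 0.05, where 11.5% of all genes were higher and 8.35% lower in HFD mice, and 11.6% and 7.18% in ob/ob mice. Of the 9 myofibroblast and smooth muscle markers, 2 were higher in each model, and their mean rlog was 6.33, 6.75 and 6.57 in LFD, HFD and ob/ob mice. Of the 10 endothelial markers, 1 and 0 were higher at that p, while 8 and 7 lay above the LFD mean, and their means were 7.64, 7.90 and 7.73. The 10 adipocyte markers had means of 7.44, 7.37 and 7.35, with 1 higher and 1 lower in each model. These were Lep, which encodes leptin, at 1.17 and 1.34 above LFD, and Cfd, which encodes adipsin, at 1.68 and 2.13 below. The 6 mesothelial markers had means of 5.99, 5.62 and 5.44. Of these, Msln was 1.18 above LFD in HFD mice, at that p, and 0.84 above in ob/ob mice, which missed it. Upk3b, at 1.06 and 1.53 below LFD, and Lrrn4, at 0.98 and 1.12 below, were lower in each model. The 10 markers of duct and tumour epithelium had means of 10.02, 10.75 and 10.01, with 5 higher in HFD mice, and in ob/ob mice 1 on either side. The 10 islet markers had means of 9.08, 8.59 and 10.00, with 7 higher in ob/ob mice.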

How the data were processed

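Total RNA of the 8 pancreata was sequenced. The authors checked reads with FastQC, quantified Gencode M18 transcripts (GRCm38.p6) with Salmon 0.11.3, summed them per gene with tximport, and deposited rlog values of DESeq2 1.22.2, on a log2 scale, for 15047 genes. How these genes were filtered is not given in the sources used here. Counts were not used, so the depth of each mouse is unknown, and no counting error is given. Salmon shares reads between similar transcripts, so related collagens and overlapping genes carry uncertainty that the values do not show.

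Groups and replicate numbers came from the sample titles. Nothing says whether animals were processed in batches. Group means of all 8 mice were fitted with limma 3.58.1 (R 4.3.3; empirical Bayes with a trend, Benjamini-Hochberg over all genes, two-sided). The obese comparison took the mean of the HFD and ob/ob means. The procedure was tested on simulated data for HFD against LFD, with 50 genes raised at each size. At an adjusted p under 0.05, limma called 0% of those raised by 2 SD, 42% at 4 SD and 94% at 8 SD, with 11 false calls. Differences of a few SD could thus be missed. Levels per kb used Gencode M21 transcript lengths. All members are accounted for. Named with values were the 4 markers of the family; in each class the 2 largest differences and the smallest; members below LFD in both models; the 3 largest differences between ob/ob and HFD; chain pairs; the extremes per length; and the extremes of 5 pathway lists. Other members were added to complete each class. P4hb, Mia3, P3h4, Colgalt2, Bmp1, Adamts2, Adamts14 and the single cell markers were named after their values were seen. Members, classes, pathway lists and 11 cell lists were chosen with earlier results of these data known. The results of 1 cell list and the alleles of the graft are not reported here.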

Additional observations from a re-analysis of the deposited data

How the results depend on the processing

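No collagen passed an adjusted p of 0.05 with all mice. The counts turn on single animals. Leaving out each mouse, or both HFD replicate 3 and ob/ob replicate 2 (chosen after the data were seen), gave these ranges. HFD against LFD had 9 to 23 members higher and 0 to 1 lower at an unadjusted p under 0.05, 0 to 18 at an adjusted p under 0.05, and a median difference of 0.62 to 1.37. The 9 came without LFD replicate 3, where 6.52% of all genes were higher, against 11.5% with all mice. The 23 and the 18 came without HFD replicate 1, where 19.8% of all genes were higher at an unadjusted p under 0.05 and 18.7% passed an adjusted p of 0.05, so the shares of all genes moved too. The lower member, Col7a1, missed an unadjusted p of 0.05 without LFD replicate 1 in either model and without ob/ob replicate 2 in ob/ob mice. For ob/ob against LFD these were 10 to 22 higher, 0 to 1 lower, 0 to 2 adjusted and a median of 0.60 to 1.36. The 10 came without ob/ob replicate 2 (4.03% of all genes higher), where Col3a1, Col24a1, Col4a1, Col4a2, Col4a5, Col12a1, Col14a1, Col16a1, Col6a1 and Col28a1 missed the unadjusted p of 0.05, and the 2 adjusted either without ob/ob replicate 1 (Col11a1 and Col6a3, with 0.405% of all genes) or without HFD replicate 1 (Col5a2 and Col11a1, with 0.591%). For ob/ob against HFD they were 2 to 7 higher, 0 to 1 lower, 0 adjusted and a median of -0.15 to 0.35, so its sign changed, to -0.15 without HFD replicate 1 and to -0.07 without ob/ob replicate 2. The 7 came without ob/ob replicate 1 (4% of all genes). The median of the network class there ran from -0.25 (without HFD replicate 1) to 0.24. Both models against LFD had 16 to 22 higher, 1 lower, 0 to 22 adjusted and a median of 0.78 to 1.24. The 22 came without HFD replicate 1 (22.1% of all genes) and 10 without ob/ob replicate 1 (3.16%). The cause was not tested.

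With the acinar mean as a covariate, the family medians were 0.36 for HFD mice, 0.56 for ob/ob mice and 0.46 for both models against LFD, and the fibrillar medians 0.61, 1.10 and 0.88. At an unadjusted p under 0.05, 0 members were lower in these, where 4.55%, 3.6% and 4.4% of all genes were, although Col7a1 was still below LFD by 0.56, 0.54 and 0.55. For ob/ob against HFD, 8 were higher and 1 lower, where 4.3% and 3.62% of all genes were. With only the groups compared, ob/ob against LFD had 2 members at an adjusted p under 0.05 (Col1a1 and Col5a2, where 0.253% of all genes were) and ob/ob against HFD had 1 higher. Quantile normalization gave 2 lower for both models. No limma trend, a minimum mean rlog of 5 and median centring left each count and family median within 1.5 times or 1 SD. Deviations from the group mean, over all genes, correlated at -0.28 to 0.59 between same-numbered mice of different groups. Pairs with an LFD mouse had either sign, while those of HFD with ob/ob mice were positive (0.59 and 0.30). Whether the numbers mark a batch is not known. With a replicate block, 19, 20, 2 and 20 members were higher in the 4 comparisons, where 12.7, 12.5, 1.89 and 15.7% of all genes were, 0 were at an adjusted p under 0.05, and ob/ob against HFD had 1 lower. Without counts, depth per mouse could not be weighed.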

Other observations

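Of 10 chondrocyte and bone cell markers, 3 were in the table, and Acan, the main proteoglycan of cartilage, was the most abundant. It was at 4.27, 4.52 and 3.93 in the LFD mice, 4.05, 4.85 and 10.78 in the HFD mice, and 4.96 and 7.44 in the ob/ob mice. HFD mouse 3 thus stood more than 3 above every other mouse in Acan, and it was also the mouse with the outlying Col6a4 value of 6.12. The other markers measured did not stand apart in that mouse. Hapln1 was at 2.02 (1.85 to 2.19 in LFD mice) and Comp at 3.20 (2.87 to 3.46). Col2a1, the main cartilage collagen, was not in the table, and Col10a1 was at 5.58 in HFD mouse 3, within the LFD range. Slc19a1, which overlaps Col18a1, was 0.36 below LFD in HFD mice and 0.54 below in ob/ob mice.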
